A study of Mus musculus with 6 samples.

Results

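The interferon-inducible GTPases described here are 8 genes of 2 families, the guanylate-binding proteins Gbp2, Gbp3, Gbp6 and Gbp7 and the immunity-related GTPases Iigp1, Irgm1, Irgm2 and Igtp. They were chosen by name, as all probe sets annotated to one of these symbols, and are 8 of the 13043 genes whose mean signal passed a filter on weak values. A total of 12 probe sets carried these symbols, and for each gene the one with the highest mean signal over all arrays stood for it. All 8 genes passed the filter. The measurements are Affymetrix mouse array signals from fat of NOD mice, a strain that becomes diabetic by autoimmune loss of insulin-producing cells. Per the labels, 2 arrays came from normoglycemic females of 10 weeks. Another 2 came from mice with more than 300 mg/dl of blood glucose on 3 consecutive days, called diabetic here. The remaining 2 came from mice given alpha-1-antitrypsin (AAT), a serum inhibitor of neutrophil proteases, that stayed reverted and independent of insulin. The fat depot, the dose and duration of AAT, the time of sampling and, outside the normoglycemic group, age and sex are not given in the sources used here. Nothing states that the arrays of a group hold RNA of different mice, so the spread between them, and each p-value based on it, may be technical only.

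Guanylate-binding proteins are large GTPases of the dynamin superfamily, and immunity-related GTPases are smaller relatives with the same type of nucleotide-binding domain. Cells make both after exposure to interferon gamma, and many of them also after type I interferon, and the proteins gather on vacuoles that hold intracellular parasites and bacteria and help to disrupt them. Irgm1, Irgm2 and Igtp (also called Irgm3) form the regulatory branch, which carries methionine in place of a conserved lysine in the nucleotide-binding loop, sits on the cell's own membranes and keeps effector proteins such as Iigp1 (also called Irga6) inactive there. In fat, macrophages, endothelial cells and adipocytes can all respond to interferons.

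The promoters of these genes are shown because interferons commonly act through short promoter elements bound by IRF and STAT factors. A pair of such elements was searched on both strands of the RefSeq window from 250 bases before to 50 bases after each transcription start. The first was the core of the interferon-stimulated response element (ISRE), which is GAAA, any 2 bases and GAAA again, and the second the gamma-activated site (GAS), spelled TTCNNNGAA, which equals its own reverse complement. RefSeq's table held windows for 6 of the 8 genes, in build GRCm38.p6, that is of the C57BL/6J reference strain and not of NOD mice. The stretch from 120 bases before to 30 bases after the start is printed here on the strand of the gene, 5′ to 3′, with letters that match either element in capitals. Where an ISRE core lies on the opposite strand it reads as its reverse complement.
Gbp2, chr3:142620543-142620692, plus strand: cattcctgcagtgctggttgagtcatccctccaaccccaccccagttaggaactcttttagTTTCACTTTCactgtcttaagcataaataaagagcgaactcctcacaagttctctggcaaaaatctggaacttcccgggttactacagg
Gbp3, chr3:142559924-142560073, plus strand: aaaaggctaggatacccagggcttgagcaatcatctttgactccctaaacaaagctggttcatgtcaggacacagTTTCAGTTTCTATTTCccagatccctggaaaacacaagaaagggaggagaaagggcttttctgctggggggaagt
Gbp7, chr3:142530216-142530365, plus strand: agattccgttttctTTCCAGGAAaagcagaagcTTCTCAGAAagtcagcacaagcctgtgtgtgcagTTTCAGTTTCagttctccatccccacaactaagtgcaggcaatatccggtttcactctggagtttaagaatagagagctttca
Irgm1, chr11:48871391-48871540, minus strand: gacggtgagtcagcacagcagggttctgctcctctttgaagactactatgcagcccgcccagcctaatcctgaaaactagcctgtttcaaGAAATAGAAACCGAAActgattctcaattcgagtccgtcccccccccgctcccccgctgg
Irgm2, chr11:58214857-58215006, plus strand: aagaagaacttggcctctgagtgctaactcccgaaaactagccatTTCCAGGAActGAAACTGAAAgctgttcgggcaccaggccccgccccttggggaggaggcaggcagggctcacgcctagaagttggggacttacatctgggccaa
Igtp, chr11:58199436-58199585, plus strand: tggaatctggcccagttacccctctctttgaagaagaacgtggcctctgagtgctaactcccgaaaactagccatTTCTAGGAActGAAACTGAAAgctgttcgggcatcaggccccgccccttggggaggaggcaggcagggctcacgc

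An ISRE core was present in a window of each of the 6 genes, against 3.99% of the 27025 genes with a window in the RefSeq table. Counted by window, the share was 3.44% of 32851. Its first base lay 59 bases before the start in Gbp2, 53 in Gbp7, 64 in Irgm2 and 34 in Igtp. Gbp3 and Irgm1 each had 2 overlapping cores, at 45 and 39 bases before the start in Gbp3 and at 30 and 24 in Irgm1. Gbp3 had a second annotated start whose window held neither element. GAS matches occurred in 3 of the 6 genes, against 9.55% of all genes with a window and 8.30% of all windows. Gbp7 held 2 of them, and in Irgm2 and Igtp the match ended 2 bases before the ISRE core, as the nearby capitals show. Irgm2 and Igtp both lie on chromosome 11, and their windows were 91.1% identical over 271 aligned positions. Of other genes with a window, 5 of 7 other interferon-inducible GTPases, 12 of 24 interferon-stimulated genes and 2 of 12 antigen presentation genes held the ISRE core. These matches describe letters in the reference sequence, and binding was not measured.

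The arrays differed in quality measures. Beta-actin is measured by control probe sets at both ends of its transcript, and a high 3′/5′ ratio goes with poorer RNA or labelling. The ratio read 3.63 and 4.30 (normoglycemic), 15.2 and 15.5 (diabetic) and 9.08 and 5.87 (AAT-treated). Normoglycemic 1 and AAT-treated 2 stood apart from the others on the first principal component and had the highest mean signals of the spiked hybridisation controls, 128547 and 86286 against 25159 to 48494 on the other arrays. The adipocyte hormone gene Adipoq had signals of 15690 to 48984 on the arrays, whose labelled tissue is fat.

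Gbp2, a guanylate-binding protein known for its recruitment to Toxoplasma vacuoles, had signals of 1622 and 1596 (normoglycemic), 1059 and 1803 (diabetic) and 1936 and 2506 (AAT-treated). Both AAT-treated arrays lay above the other 4, while the diabetic arrays lay on either side of the normoglycemic ones. Gbp3 signals were 379 and 507 (normoglycemic), 790 and 1338 (diabetic) and 883 and 1138 (AAT-treated). Both normoglycemic arrays were the lowest, and the diabetic and AAT-treated ranges overlapped.

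Gbp6 had the widest range of the 8 genes on the log scale. Its signals were 107 and 463 (normoglycemic), 1005 and 1292 (diabetic) and 1282 and 1118 (AAT-treated). Normoglycemic 1 lay far below its partner, and both lay below all other arrays. Gbp7, a member linked to assembly of the phagocyte oxidase, had signals of 1035 and 1771 (normoglycemic), 1987 and 2449 (diabetic) and 2694 and 2090 (AAT-treated). The normoglycemic arrays were again the lowest, but Gbp7 on normoglycemic 2 lay close to diabetic 1.

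Iigp1, an effector that the regulatory branch keeps inactive on the cell's own membranes, had signals of 1372 and 1800 (normoglycemic), 3462 and 4633 (diabetic) and 2981 and 2315 (AAT-treated). The 3 groups did not overlap, with diabetic fat highest and AAT-treated fat between the other groups, which Iigp1 alone showed among the 8 genes. On the second Iigp1 probe set, given further on, the AAT-treated arrays lay inside the diabetic range. Irgm1, which guards haematopoietic and macrophage function in mice, had signals of 1071 and 853 (normoglycemic), 647 and 1030 (diabetic) and 911 and 1282 (AAT-treated), and all 3 groups overlapped.

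Irgm2 signals were 423 and 475 (normoglycemic), 399 and 666 (diabetic) and 599 and 1037 (AAT-treated). Igtp signals were 720 and 688 (normoglycemic), 435 and 1319 (diabetic) and 1721 and 1112 (AAT-treated). For both of these regulatory genes the AAT-treated arrays lay above the normoglycemic ones, and the diabetic arrays spanned the normoglycemic range.

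**Figure D1:**
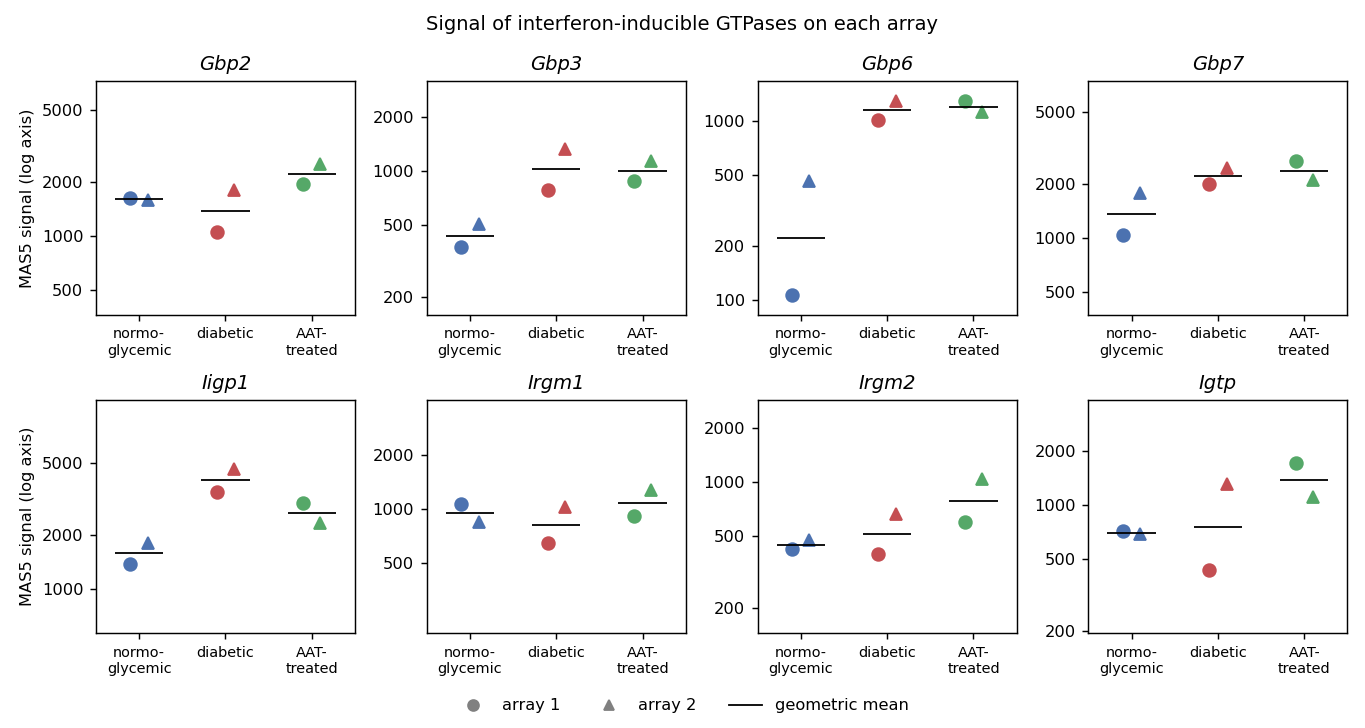
MAS5 signal (log axis) of the 8 GTPases on each array, by group; circles are array 1, triangles array 2 and lines the geometric mean of 2 arrays. Gbp3, Gbp6, Gbp7 and Iigp1 have both normoglycemic arrays lowest, while the diabetic arrays of Gbp2, Irgm1, Irgm2 and Igtp lie on both sides of, or among, the normoglycemic ones.

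Against normoglycemic fat, diabetic fat had higher mean values of 6 of the 8 GTPases, led by Gbp6, Iigp1 and Gbp3. Differences are given on the scale of log2(signal + 75) with the moderated standard error of limma (n = 2 arrays per group), which understates differences of weak signals. Gbp6 differed by 1.96 ± 0.49, Iigp1 by 1.31 ± 0.33, Gbp3 by 1.11 ± 0.36 and Gbp7 by 0.67 ± 0.36. Those 4 genes were the ones whose groups did not overlap, 4 of 8, where 20.2% of all genes had non-overlapping groups with diabetic fat higher, 24.5% with it lower and 44.7% either way. The regulatory genes and Gbp2 stood near 0, at 0.18 ± 0.39 for Irgm2, 0.12 ± 0.48 for Igtp, −0.21 ± 0.36 for Irgm1 and −0.21 ± 0.35 for Gbp2. The intervals at 95% confidence ran from −0.71 to 1.07 for Irgm2 and from −0.99 to 1.22 for Igtp. The median over the 8 genes was 0.43, and over all genes −0.05. Macrophage markers, given in full further on, had summed signals of 10242 and 10122 (normoglycemic) and 23229 and 37407 (diabetic). In whole fat, more cells of a type and more RNA per cell cannot be told apart, and the part of macrophages in the GTPase values was not tested.

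No GTPase passed the threshold of an adjusted p of 0.05 by limma with Benjamini-Hochberg adjustment over all genes, and neither did any other gene (0 of 13043, 0%). The adjusted p was 0.459 for both Gbp6 and Iigp1 and 0.482 for Gbp3. At an unadjusted p under 0.05 there were 3 of the 8 GTPases, all higher in diabetic fat (0.0038 for Gbp6, 0.0040 for Iigp1 and 0.015 for Gbp3 by limma), against 5.27% of all genes higher, 4.62% lower and 9.9% in either direction. Diabetic 1 decided part of the pattern: without it the median was 0.83 and 7 of the 8 were higher without overlap, where 32.6% of all genes were with 1 array against 2, and without diabetic 2 the median was 0.19. Without normoglycemic 1 the median was 0.22, and without normoglycemic 2 it was 0.65. Gbp6 differed by 1.17 without normoglycemic 1 and by 2.74 without normoglycemic 2.

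Between AAT-treated and diabetic fat 6 of the 8 GTPases had higher and 2 lower mean values, and the groups of most overlapped. Iigp1 was lower in AAT-treated fat by −0.59 ± 0.33 with no overlap, though its other probe set gave −0.07 with overlapping groups. Gbp2 was higher by 0.64 ± 0.35 with no overlap, though its other probe set gave 0.33, also with overlapping groups. That is 1 of 8 genes in each direction, where 15.9% of all genes were lower, 17.9% higher and 33.8% either without overlap, so both counts lie near the background. The regulatory genes differed by 0.79 ± 0.48 (Igtp), 0.55 ± 0.39 (Irgm2) and 0.37 ± 0.36 (Irgm1). Gbp3, Gbp6 and Gbp7 differed by −0.04 ± 0.36, 0.07 ± 0.49 and 0.10 ± 0.36, and their intervals at 95% confidence reached from −0.87 to 0.79, from −1.06 to 1.20 and from −0.72 to 0.92. The median was 0.24, against 0.01 over all genes. By limma 0 of 8 GTPases and 0 of all genes (0%) passed the adjusted threshold, the lowest adjusted p of a GTPase being 0.961, and 0 of 8 had an unadjusted p under 0.05, against 4.77% of all genes, 2.94% higher and 1.83% lower. With 1 array against 2, 7 of the 8 were higher without overlap when diabetic 2 was left out (32.5% of all genes), 3 when AAT-treated 1 was (44.1%) and 3 when AAT-treated 2 was (28.6%). The median was 0.01 without diabetic 1, 0.50 without diabetic 2 and 0.17 without AAT-treated 2.

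AAT-treated fat had higher mean values than normoglycemic fat for all 8 GTPases. Gbp6 differed by 2.02 ± 0.49, Gbp3 by 1.07 ± 0.36, Igtp by 0.91 ± 0.48, Gbp7 by 0.77 ± 0.36, Irgm2 by 0.73 ± 0.39, Iigp1 by 0.71 ± 0.33 and Gbp2 by 0.44 ± 0.35. These 7 genes had groups that did not overlap, 7 of 8, where 16% of all genes did so in that direction, 16.1% in the other and 32.1% in either. Irgm1, the exception, differed by 0.17 ± 0.36 with overlapping arrays. The median was 0.75, against −0.03 over all genes. Without normoglycemic 1 and AAT-treated 2, the arrays that stood apart, each of these groups had a single array, all 8 GTPases were higher in AAT-treated fat with a median of 0.65, and 46.5% of all genes were higher. By limma 0 of the 8 GTPases and 0 of all genes (0%) passed the adjusted threshold (adjusted p = 0.785 for Gbp6 and 0.890 for Gbp3). Both of these had an unadjusted p under 0.05 (0.0031 and 0.018), 2 of 8, against 5.12% of all genes, 3.4% in that direction and 1.72% in the other. Smooth muscle markers were higher in AAT-treated fat without overlap for 10 of 10 genes, against normoglycemic fat (16% of all genes) and against diabetic fat (17.9%). Their summed signals were 8672 and 34447 (normoglycemic), 16777 and 11199 (diabetic) and 66883 and 102021 (AAT-treated), and their part in the GTPase values was not tested. The comparison of AAT-treated with normoglycemic fat shares arrays with each of the other 2, so the 3 sets of differences are not independent. In it the Gbp6 difference was 1.24 without normoglycemic 1 and 2.81 without normoglycemic 2.

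**Figure D2:**
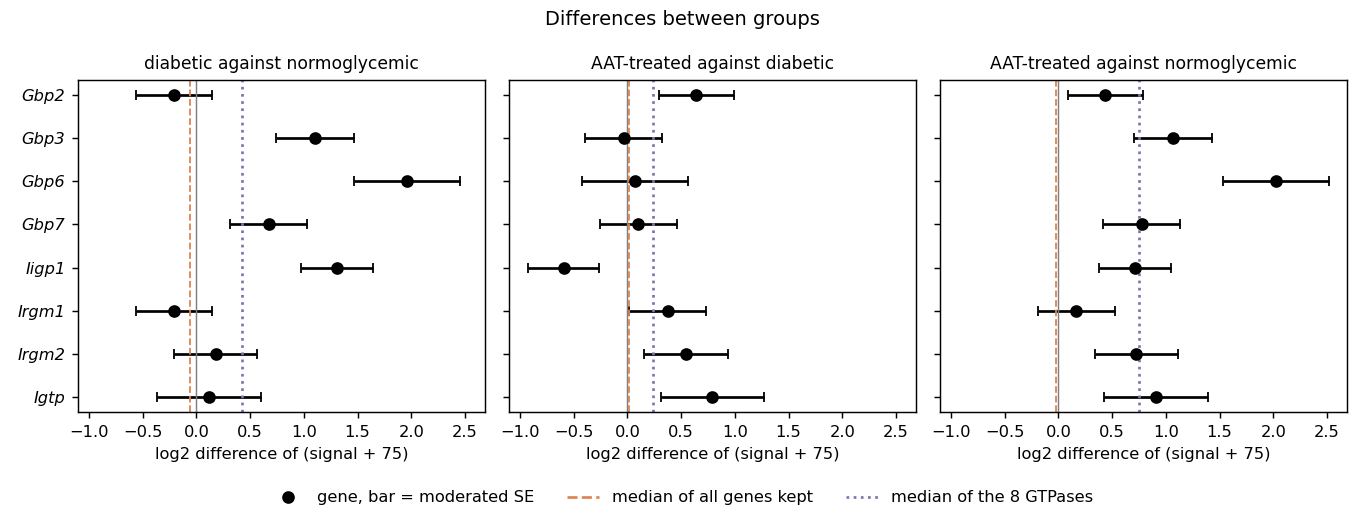
Differences of log2(signal + 75) between groups for each GTPase (points, with bars for the moderated SE of limma, n = 2 arrays per group), with the median of the 8 GTPases (dotted) and of all 13043 genes (dashed). Against normoglycemic fat Gbp6 and Gbp3 lie at about the same place in diabetic (1.96 and 1.11) and AAT-treated fat (2.02 and 1.07), while Iigp1 lies at 1.31 and 0.71.

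A quality measure differed alongside some of these values. Group means of Iigp1 had the order of the beta-actin ratio, normoglycemic, AAT-treated, diabetic. With that ratio as a term in the fit, Iigp1 differed between diabetic and normoglycemic fat by −0.09 ± 1.26 and Gbp6 by −0.23 ± 1.97, and Gbp3 by 1.56 ± 1.49. The ratio is nearly the same within the diabetic and within the normoglycemic pair, so these errors are several times those without it, and the ratio and the disease state cannot be told apart here.

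Over the 6 arrays the GTPases followed 2 courses. Gbp3, Gbp6, Gbp7 and Iigp1 correlated among themselves at 0.81 to 0.97, and Gbp2, Irgm1, Irgm2 and Igtp at 0.58 to 0.90, while correlations between a gene of the first set and one of the second ran from −0.27 to 0.71. These sets were formed after the values were seen and carry no test, and all pairs share the same 6 arrays. The first set crosses both families and 3 chromosomes, with Gbp3 and Gbp7 on chromosome 3, Gbp6 on 5 and Iigp1 on 18. In the second, Gbp2 is on chromosome 3 and the regulatory genes are on 11. Within diabetic fat, all 8 genes had a higher signal on diabetic 2 than on diabetic 1 on the probe sets that stood for them. The second Gbp7 probe set had the reverse order, with 1409 on diabetic 1 and 1163 on diabetic 2. Those of Gbp2, Gbp6 and Iigp1 were higher on diabetic 2. The median gap of the 8 genes was 0.63 on the log2 scale against 0.36 over all genes, whereas 48.4% of all genes were higher on diabetic 2. In normoglycemic and AAT-treated fat the gap of the 8 genes was 0.33 and 0.36, and the gap of all genes was 0.46 and 0.48. On the probe sets that stood for the genes, diabetic 1 held the lowest value of Gbp2, Irgm1, Irgm2 and Igtp, and normoglycemic 1 that of the other 4 genes. The second probe sets of Gbp2 and Gbp6 differed in this, with the lowest value on normoglycemic 1 (973) for Gbp2 and on diabetic 1 (290) for Gbp6. Those of Gbp7 and Iigp1 were lowest on normoglycemic 1 as well.

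**Figure D3:**
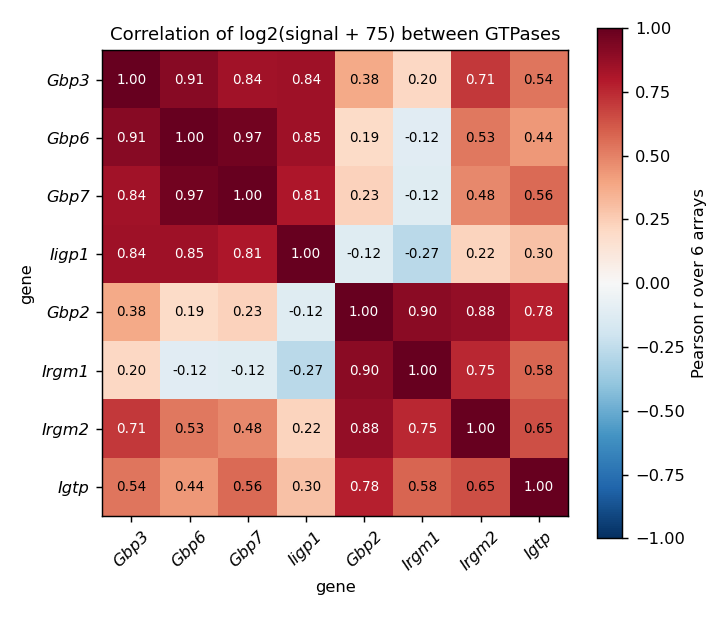
Pearson correlation of log2(signal + 75) over the 6 arrays between each pair of GTPases (colour and number in each cell). The block of Gbp3, Gbp6, Gbp7 and Iigp1 runs from 0.81 to 0.97 and that of Gbp2, Irgm1, Irgm2 and Igtp from 0.58 to 0.90, and Irgm1 with Iigp1 is lowest at −0.27.

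Second probe sets existed for 4 genes, and all passed the filter. For Gbp7 the second probe set had the same directions and the same non-overlap, with differences of 0.43 in diabetic and 0.55 in AAT-treated against normoglycemic fat. For Iigp1 the second probe set also had non-overlapping diabetic and normoglycemic arrays (0.74), with signals of 458 and 557 (normoglycemic) and 617 and 1287 (diabetic), but its AAT-treated signals of 815 and 882 lay inside the diabetic range (−0.07). The Gbp2 probe sets disagreed in direction between diabetic and normoglycemic fat, at −0.21 for the one that stood for the gene and 0.35 for the other, whose name marks it as possibly binding other transcripts. On that other Gbp2 probe set AAT-treated 1 (1824) lay below diabetic 2 (1906), so the AAT-treated arrays were not above all others. For Gbp6 the disagreement was in size: the second, weaker probe set, with signals of 290 to 602, differed by 0.02 in diabetic and 0.19 in AAT-treated against normoglycemic fat, where the brighter one gave 1.96 and 2.02. The large Gbp6 differences therefore rest on 1 probe set of 2.

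Among the other interferon-inducible GTPases 3 of 4 were higher in diabetic and 3 of 4 in AAT-treated than in normoglycemic fat, with medians of 0.18 and 0.26. Of 19 symbols listed, 7 had a probe set with that symbol alone, of which 4 genes were kept and 3 lay under the filter. The rest were not measured here. Ifi47, an immunity-related GTPase, had signals of 929 and 586 (normoglycemic), 534 and 658 (diabetic) and 709 and 1510 (AAT-treated), and differed by −0.29 ± 0.42 in diabetic and 0.45 ± 0.42 in AAT-treated against normoglycemic fat. Gbp2b, a further guanylate-binding protein gene, differed by 0.17 ± 0.50 and 0.37 ± 0.50, and Irgq, an atypical relative, by 0.42 ± 0.32 and 0.15 ± 0.32. Mx1, an antiviral GTPase of the type I interferon response, differed by 0.18 ± 0.52 and −0.74 ± 0.52, with weak signals of 77.2 to 272. None passed the adjusted threshold by limma or had an unadjusted p under 0.05 in any of the 3 comparisons (0 of 4).

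Upstream of the GTPases, the gene of interferon gamma itself, Ifng, lay under the filter with signals of 15.9 to 222, highest on normoglycemic 1, and Socs1, which damps the response, lay under it too with signals of 79.7 to 310. On the interferon gamma signalling list 13 of 19 genes were kept, and 0 had an unadjusted p under 0.05 in any comparison. The receptor chain gene Ifngr1 differed by 0.35 ± 0.49 and Ifngr2 by −0.47 ± 0.35 between diabetic and normoglycemic fat. The kinases Jak1 and Jak2 differed by −0.57 ± 0.32 and 0.29 ± 0.36. Irf1, a transcription factor that binds the ISRE and is itself induced, had signals of 2213 and 2211 (normoglycemic), 1787 and 1897 (diabetic) and 2328 and 2599 (AAT-treated). Diabetic fat was lowest without overlap for Irf1 (−0.26 ± 0.29 against normoglycemic fat). That sign was shared by Gbp2 and Irgm1 and opposite to that of the other 6 GTPases. Irf8, of macrophages and dendritic cells, differed by 0.59 ± 0.41 and Irf9, the partner of Stat2, by 0.42 ± 0.35 in diabetic fat and 0.68 ± 0.35 in AAT-treated fat. On the type I list 7 of 7 were kept and 0 had an unadjusted p under 0.05 by limma in any comparison, against the shares of all genes given above. Without overlap 2 were higher and 1 lower in diabetic than in normoglycemic fat. The counts were 0 and 2 in AAT-treated against diabetic fat, and 2 and 2 against normoglycemic fat. Irf7 differed by 0.56 ± 0.36 in diabetic and 0.72 ± 0.36 in AAT-treated against normoglycemic fat, Stat2 by 0.04 ± 0.61 and 0.08 ± 0.61, and the receptor genes Ifnar1 and Ifnar2 by −0.07 ± 0.32 and −0.30 ± 0.35 in diabetic fat.

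Interferon-stimulated genes outside the GTPases lay closer to all genes in their medians. Of 27 kept, 16 were higher in diabetic than in normoglycemic fat with a median of 0.02, and 18 were higher in AAT-treated fat with a median of 0.27. In diabetic against normoglycemic fat 5 of the 27 were higher and 5 lower without overlap (20.2% and 24.5% of all genes), and 2 had an unadjusted p under 0.05, both higher (5.27% of all genes). In AAT-treated against normoglycemic fat 7 were higher and 1 lower without overlap (16% and 16.1%), and 3 had an unadjusted p under 0.05, all higher (3.4%). Ifit1, which binds viral RNA, differed by 0.27 ± 0.41 and 0.49 ± 0.41 in diabetic and AAT-treated against normoglycemic fat, and the antiviral enzyme gene Rsad2 by −0.16 ± 0.54 and 0.08 ± 0.54. Oasl2 differed by 0.40 ± 0.39 and 0.91 ± 0.39. The chemokine Cxcl9, a typical interferon gamma target, had signals of 174 and 2171 in normoglycemic fat, a spread that covered all other arrays, and Cxcl10 differed by −0.28 ± 0.75 and −0.06 ± 0.75. Of the 15 antigen presentation genes kept, 10 and 12 were higher in diabetic and AAT-treated than in normoglycemic fat, with medians of 0.36 and 0.38. Without overlap 5 were higher and 1 lower in diabetic fat (20.2% and 24.5% of all genes). In AAT-treated fat 7 were higher and 0 lower without overlap (16% and 16.1%). An unadjusted p under 0.05 by limma was held by 2 in diabetic fat (5.27%) and 1 in AAT-treated fat (3.4%), all higher. Tap1, a peptide transporter gene, differed by 1.44 ± 0.56 and 1.52 ± 0.56, with signals of 60.4 and 381 (normoglycemic), 484 and 735 (diabetic) and 737 and 549 (AAT-treated). The immunoproteasome genes Psmb8 and Psmb9 differed by 0.26 ± 0.36 and −0.15 ± 0.39 in diabetic fat, B2m by −0.32 ± 0.64 and Cd74 by 0.95 ± 0.58. In AAT-treated against normoglycemic fat Psmb8 and Psmb9 differed by 0.35 ± 0.36 and 0.22 ± 0.39, B2m by −0.22 ± 0.64 and Cd74 by 1.11 ± 0.58. No gene of either list passed the adjusted threshold by limma. Whether the GTPases differ from these lists was not tested.

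Cell type markers also differed between arrays. Of 15 macrophage markers 13 were kept, and their summed signal was 10242 and 10122 (normoglycemic), 23229 and 37407 (diabetic) and 23817 and 13842 (AAT-treated). Their group means had the order of Iigp1, but AAT-treated 1 lay above diabetic 1. Groups did not overlap with diabetic fat higher than normoglycemic fat for 8 of the 13, against 20.2% of all genes. Among the 8 was the receptor Csf1r (1.88 ± 0.45), and Adgre1 and Cd68 differed by 0.40 ± 0.35 and 0.17 ± 0.46. For the 8 GTPases the summed signal was 6729 and 8153 (normoglycemic), 9784 and 14531 (diabetic) and 13007 and 12600 (AAT-treated). The 12 endothelial markers had summed signals of 3935 and 36045 (normoglycemic), 23373 and 16696 (diabetic) and 35303 and 6878 (AAT-treated), lowest on the arrays that stood apart. On normoglycemic 1 the endothelial genes Pecam1, Cdh5 and Kdr had signals of 99.0, 359 and 719, against 633 or more, 487 or more and 841 or more on the other arrays. Of 17 T cell and natural killer markers 14 had a probe set with that symbol alone. Of these, 8 lay under the filter and 6 were kept, with a summed signal of 898 to 2238. Under the filter, Cd3d had signals of 91.7 and 36.4 (normoglycemic), 45.6 and 132 (diabetic) and 289 and 306 (AAT-treated), highest in AAT-treated fat without overlap. Cd3e ranged from 36.3 to 187, Cd3g from 56.4 to 310, highest on AAT-treated 2, and Cd4 from 18.7 to 76.0. Of the 6 kept, 5 were higher in AAT-treated than in diabetic fat. Of the 3 first T cell and natural killer genes kept, Cd8a differed by −0.36 ± 0.46, Cd28 by 0.04 ± 0.48 and Prf1 by −0.13 ± 0.42 between diabetic and normoglycemic fat. B cell and plasma cell markers kept, 7 of 11, summed to 3556 and 2313 (normoglycemic), 1953 and 5835 (diabetic) and 30861 and 12543 (AAT-treated). Most of the AAT-treated sums lay in Ighm (19419 and 3925) and Jchain (9846 and 5310), genes named after their values were seen. Of the 7 kept, 4 were higher and 3 lower in AAT-treated than in normoglycemic fat, and 7 were higher than in diabetic fat. Neutrophil markers (5 of 10 kept) summed to 685 to 2338, adipocyte markers (12 of 14) to 272721 to 568732 and mesothelial markers (8 of 8) to 3847 to 15977. All 12 adipocyte markers kept had lower mean values in AAT-treated than in normoglycemic fat, with a median of −0.33. Of them 5 were lower without overlap, against 16.1% of all genes. In diabetic against normoglycemic fat 7 of the 12 were higher and 5 lower. Red cell and platelet markers (6 of 10 kept) summed to 9782 and 12384 (normoglycemic), 2824 and 3288 (diabetic) and 10958 and 4218 (AAT-treated). The part of these cell types in the GTPase values was not tested.

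**Figure D4:**
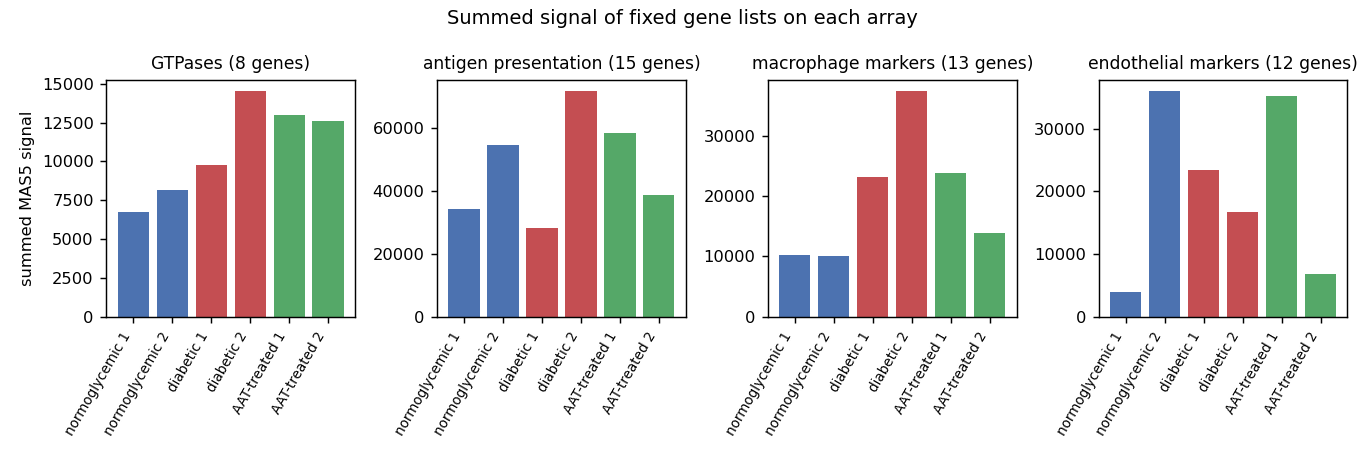
Summed MAS5 signal on each array of the GTPases, of antigen presentation genes, and of macrophage and endothelial markers (bars; the number of genes is above each panel and each panel has its own axis). Both normoglycemic arrays are lowest for the GTPase sum (6729 and 8153) and for macrophage markers (10242 and 10122). For antigen presentation genes diabetic 1 is lowest. Bright genes weigh most in a sum, and Iigp1 is the brightest GTPase on both diabetic arrays (3462 and 4633, against 1372 and 1800 in normoglycemic fat). Gene by gene, on the probe sets summed here, diabetic 1 is lowest for Gbp2, Irgm1, Irgm2 and Igtp, and normoglycemic 1 for Gbp3, Gbp6, Gbp7 and Iigp1. The second probe sets of Gbp2 and Gbp6, not summed, are lowest on normoglycemic 1 and diabetic 1, respectively.

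The genes most like the GTPases were found by correlation with the mean of the 8 standardised profiles over the 6 arrays, a ranking of 13035 genes that describes these arrays alone. The nearest was Plod2, a collagen lysyl hydroxylase, at 0.99, with signals of 317 and 522 (normoglycemic), 503 and 1298 (diabetic) and 983 and 1224 (AAT-treated). It was followed by the kinase gene Stk39 (0.98), the Schlafen gene Slfn8 (0.98), the LIM-domain gene Fhl1 (0.97) and the oxytocin receptor gene Oxtr (0.97). When each array in turn was left out, Plod2 ranked between 2 and 24, and Fhl1 between 6 and 112. On the gene lists the highest values, named after they were seen, were those of Rtp4 (0.94), Irf7 (0.94), the complement gene C1qc (0.93), the class II gene H2-Ab1 (0.92), Irf9 (0.91), H2-Eb1 (0.88), the plasma cell gene Mzb1 (0.88) and Cd74 (0.85), and Ifi47 was at 0.38. The 3 first macrophage genes kept, Adgre1, Csf1r and Cd68, had −0.20, 0.43 and 0.65.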

How the data were processed

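The authors deposited MAS5 signal intensities, 1 for each of 45101 probe sets on each of 6 single-colour arrays; MAS5 is named in the submitters' processing notes, its version is not given in the sources used here. RNA came from a Trizol extraction and was labelled by Affymetrix's single-cycle method, as the labels' protocols state. The deposited intensity has a trimmed mean near 500 on every array, and the authors' scaling was kept; the number of arrays limits the precision. Probe sets were named through the platform annotation, with 34945 carrying 1 symbol, 932 several and 9160 none besides 64 controls; those without exactly 1 symbol were left out, and 34741 matched the RefSeq table. Values were log2(signal + 75), 75 being near the 25th percentile of all values. A mean above 164, the 40th percentile, was required; 22075 probe sets met it, and taking the brightest for each gene left 13043 genes, with all 8 GTPases among them. The test was that of limma 3.58.1, run in R 4.3.3 (3 group means over 6 arrays, eBayes with trend, 2-sided, 3 residual and 5.36 prior degrees of freedom; statmod 1.5.0), with Benjamini-Hochberg adjustment in each comparison. An exact permutation test of 2 arrays against 2 cannot go below p = 0.333, so none was run. The fit was tested on simulated data. The genes and lists were chosen with earlier results of these data known. Named were all 8 GTPases with every probe set, kept genes of the other GTPase list, fixed genes of the pathway lists, leading genes of the marker lists and the 5 genes most like the GTPases; any other is marked as chosen after its values were seen. Alternatives changed the pseudocount, filter, normalization, variance model, probe set rule, covariates, pairing and the arrays included.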

Additional observations from a re-analysis of the deposited data

How the results depend on the processing

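No GTPase passed the adjusted threshold under any of the 20 alternatives, and of 480 recomputed differences 228 were identical by construction (such as another variance model or leaving out an array of the third group) and 24 of the other 252 changed sign, all of values that had not passed. Over all genes, 1 passed with no filter (AAT-treated against diabetic, adjusted p = 0.0417), and between 0 and 3 passed when 1 array was left out (AAT-treated against normoglycemic, 3 without normoglycemic 2). With the replicate number of the labels as a block the medians over the GTPases were 0.43, 0.24 and 0.75 and 0 genes passed. Same-numbered deviations correlated at 0.08, −0.12 and −0.51 in the 3 comparisons. With 2 arrays per group such values cannot show whether the numbers pair the arrays, and the labels do not state a pairing. Exchanging the AAT-treated numbers in the block, an alternative chosen after seeing the data, gave 1 gene past the threshold between AAT-treated and normoglycemic fat and 0 in the other comparisons. Between diabetic and normoglycemic fat the count of GTPases higher without overlap ran from 4 to 7 (31.2% to 36.1% of all genes where a compared group had 1 array) and the median from 0.19 to 0.83 with 1 array left out. Between AAT-treated and diabetic fat that count ran from 1 to 7 (28.6% to 44.1% of all genes likewise), and was 2 with the mean of all probe sets and 3 without both arrays that stood apart, also chosen after seeing the data. Most of these settings keep the order of the arrays, and leaving out an array of a compared group can only keep or raise such a count, so the counts show nothing about stability.

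Sign changes between diabetic and normoglycemic fat came with the beta-actin ratio as a covariate (Gbp2 0.70, Gbp6 −0.23, Gbp7 −1.09, Iigp1 −0.091, Irgm1 1.28, Igtp −1.62), with the hybridisation controls as a covariate (Gbp2 0.053, Irgm1 0.15) and with the mean of all probe sets (Gbp2 0.073). With 1 array left out the ranges crossed 0 for Gbp2 (−0.57 to 0.16), Irgm1 (−0.51 to 0.10), Irgm2 (−0.14 to 0.50) and Igtp (−0.61 to 0.84). Between AAT-treated and diabetic fat the beta-actin covariate turned Iigp1 (0.17), Irgm1 (−0.44) and Irgm2 (−0.39), and with 1 array left out Gbp3 (−0.39 to 0.32), Gbp6 (−0.10 to 0.24) and Gbp7 (−0.075 to 0.28) crossed 0. Between AAT-treated and normoglycemic fat Gbp7 was −0.026 with the beta-actin covariate, and Irgm1 ran from −0.065 to 0.40 with 1 array left out. The cause of these shifts was not tested.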
